A study of Homo sapiens with 6 samples.

Results

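The 10 genes described here encode parts of the peptide branch of regulated secretion in BE(2)-C neuroblastoma cells. They comprise the peptide precursors CARTPT, NPY and GAL, the granin family members VGF, CHGA, CHGB, SCG2 and SCG3, the vesicle priming factor CADPS and the peptide receptor NPY2R. They were chosen by name, with the difference between the doxycycline groups of these same arrays in view, from 14884 genes named on the array. Each had 1 probe set, so 10 of 53617 probe sets are described, and all 10 are accounted for. Because the choice drew on this contrast, the differences of the 10 genes are a description and not a test.

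Peptide hormones and neuropeptides are made as precursors that are sorted into dense-core vesicles together with granins, acidic proteins that condense in the maturing granule. Convertases cut the precursors inside the vesicle, and calcium triggers release after priming factors such as CADPS have prepared the vesicle. Sympathetic neurons and the neuroblastoma cells related to them store neuropeptide Y and chromogranins beside noradrenaline, and chromogranin A is a clinical marker of such tumours.

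Total RNA was measured on 6 whole-transcript arrays, 3 from BE(2)-C_tetoff_KDM4C cells kept with doxycycline and 3 from the same cells without it, both for 6 days in dialyzed serum. KDM4C is a histone H3 lysine demethylase, and in a tet-off system its construct is silent with doxycycline and expressed without it. Both groups carry the construct, and whether the line is 1 clone is not given in the sources used here. No arrays of cells lacking the construct were analysed here, so KDM4C induction and doxycycline withdrawal cannot be told apart. The samples are called independent without naming separate cultures, so p-values measure the spread between these samples.

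KDM4C itself had a log2 value of 9.03 ± 0.055 without and 7.76 ± 0.049 with doxycycline (SD, n = 3 each), which is the direction the labels give. Arrays of a group correlated at 0.991 to 0.993 over all probe sets, and arrays of different groups at 0.990 to 0.991. The cells carried noradrenergic neuroblastoma markers: all 11 with a named probe set, among them PHOX2A, HAND2, GATA3, DBH and TH, lay above 3.95, the median of all values. The log2 of the summed linear level of this list was 13.6 to 13.7 in both groups, a sum that weighs the brightest genes most. Gene by gene, 8 of the 11 differences, without minus with doxycycline, were positive and 3 negative, with a median of 0.15. They ran from -0.23 (STMN2) to 0.54 (ALK, limma adjusted p = 0.0565). Of the Schwann and neural crest, immune and endothelial markers, 1 of 5, 1 of 5 and 0 of 5 lay above the median of all values. Their log2 summed levels with and without doxycycline were 6.60 to 6.71 and 6.39 to 6.59, 6.62 to 6.73 and 6.63 to 6.79, and 5.41 to 5.51 and 5.56 to 5.61. All 3 measured fibroblast markers, DCN, LUM and THY1, lay above the median, and DCN fell (log2 difference -1.29, SE 0.07, limma adjusted p = 0.0119). The fibroblast list's log2 summed level was 11.4 to 11.5 with and 11.1 to 11.2 without doxycycline. That sum mostly follows LUM, the brightest of the 3, at 11.36 with and 11.06 without doxycycline (log2 difference -0.30, limma adjusted p = 0.139). Only 3 of the 9 listed fibroblast markers had a named probe set, and the list's part in the differences below was not tested. Epithelial and islet markers were at 7.87 to 7.91 with and 7.93 to 8.02 without doxycycline, 3 of 5 above the median. A zero level cannot be read from these arrays, since no background value came with them.

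Without doxycycline CARTPT was far higher, GAL and VGF were somewhat higher, and NPY2R, CADPS, CHGA and CHGB were lower, while NPY, SCG2 and SCG3 had overlapping groups. Directions were mixed: 4 of the 10 differences were positive and 6 negative. Their median was -0.06 on the log2 scale, beside 0.006 over all probe sets, and their median size regardless of sign was 0.33, beside 0.09. In bulk RNA, fewer cells of a type and less RNA per cell cannot be told apart.

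Promoter sequences from RefSeq (GRCh38.p14) matched 7 of the 10 genes: CARTPT, NPY, VGF, CHGA, SCG3, CADPS and NPY2R. The 250 bases before the annotated start are shown for CARTPT, VGF and CHGA, which share an exact cyclic AMP response element, and for CADPS and NPY2R, the 2 genes with the most negative differences. They lie at chr5:71719025-71719274 (plus strand), chr7:101165570-101165819 (minus strand), chr14:92922900-92923149 (plus strand), chr3:62875417-62875666 (minus strand) and chr4:155208386-155208635 (plus strand). Sequences run 5′ to 3′ on the gene's strand. Capitals mark the motif TGACGTCA (the cyclic AMP response element, which reads the same on both strands), TATAA on the gene's strand, and the E-box CACGTG.
CARTPT: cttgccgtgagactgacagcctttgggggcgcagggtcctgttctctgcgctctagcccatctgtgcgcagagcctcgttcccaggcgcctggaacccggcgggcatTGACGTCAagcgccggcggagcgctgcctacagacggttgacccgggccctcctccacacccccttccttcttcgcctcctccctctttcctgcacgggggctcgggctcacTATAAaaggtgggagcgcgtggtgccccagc
VGF: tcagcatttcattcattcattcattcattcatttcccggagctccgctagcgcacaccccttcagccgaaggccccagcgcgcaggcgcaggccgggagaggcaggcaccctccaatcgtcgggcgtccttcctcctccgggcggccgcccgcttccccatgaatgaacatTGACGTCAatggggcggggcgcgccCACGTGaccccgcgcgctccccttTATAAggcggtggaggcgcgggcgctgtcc
CHGA: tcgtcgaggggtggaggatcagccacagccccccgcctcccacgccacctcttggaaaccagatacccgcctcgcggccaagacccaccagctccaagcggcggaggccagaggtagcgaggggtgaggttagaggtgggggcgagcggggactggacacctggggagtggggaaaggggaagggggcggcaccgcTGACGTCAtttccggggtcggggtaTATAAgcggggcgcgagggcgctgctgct
CADPS: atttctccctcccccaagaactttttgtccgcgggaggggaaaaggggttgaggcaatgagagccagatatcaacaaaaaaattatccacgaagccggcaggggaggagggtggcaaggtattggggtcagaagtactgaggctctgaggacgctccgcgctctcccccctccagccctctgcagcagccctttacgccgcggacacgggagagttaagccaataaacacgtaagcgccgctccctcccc
NPY2R: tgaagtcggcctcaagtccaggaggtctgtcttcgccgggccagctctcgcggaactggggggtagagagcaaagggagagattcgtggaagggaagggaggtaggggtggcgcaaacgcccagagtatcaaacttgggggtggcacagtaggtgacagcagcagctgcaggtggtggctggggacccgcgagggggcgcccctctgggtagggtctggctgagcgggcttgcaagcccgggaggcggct

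The cyclic AMP response element is the palindrome bound by CREB and related leucine zipper factors. It stood 143 to 136 bases before the start in CARTPT, 79 to 72 in VGF and 54 to 47 in CHGA. Of all 35116 RefSeq promoters 1.65% held it in the same window, against 3 of these 7. The motif TATAA occurred in the same 3 promoters, 31 to 27, 30 to 26 and 29 to 25 bases before the start, and in 13.6% of all promoters. The shorter core of the response element, TGACG, was found in these 3 windows, where it lay inside the full element, and in 21.2% of all promoters on either strand. CACGTG was found in VGF alone of the 7, and in 6.34% of all promoters. The AP-1 motif TGANTCA and the amino acid response motif TGATGNAA had no match in the 7 windows on either strand, against 6.57% and 3.14% of all promoters. The motifs were chosen after the sequences had been seen, and a match is a description of letters, not of binding. Differences of the 3 genes in which the element was found were 2.15 (CARTPT), 0.27 (VGF) and -0.40 (CHGA). Whether the element plays a part in them was not tested. No promoter was matched for CHGB, SCG2 and GAL, so whether these genes hold it is not known here.

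CARTPT, the precursor of the cocaine- and amphetamine-regulated transcript peptides of feeding and stress circuits, had log2 values of 5.61, 5.51 and 5.57 with doxycycline and 8.40, 7.36 and 7.40 without it, for replicates 1, 2 and 3. The groups lay 1.75 apart at their nearest values, and untreated replicate 1 stood well above the other two, which lay close together. Means were 5.56 ± 0.049 and 7.72 ± 0.59 (SD, n = 3 each), a 4.45-fold difference (log2 2.15, SE 0.27, 95% confidence interval 1.51 to 2.80). This was the largest difference in size among all 53617 probe sets. Without untreated replicate 1 the log2 difference was 1.81. The spread between replicates differed between the groups: with doxycycline 83.5% of all probe sets had an SD at least as large as that of CARTPT, and without it 1.46% did. The limma fit takes a common spread for both groups, so the SE, interval and p of CARTPT do not reflect this inequality.

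**Figure D1:**
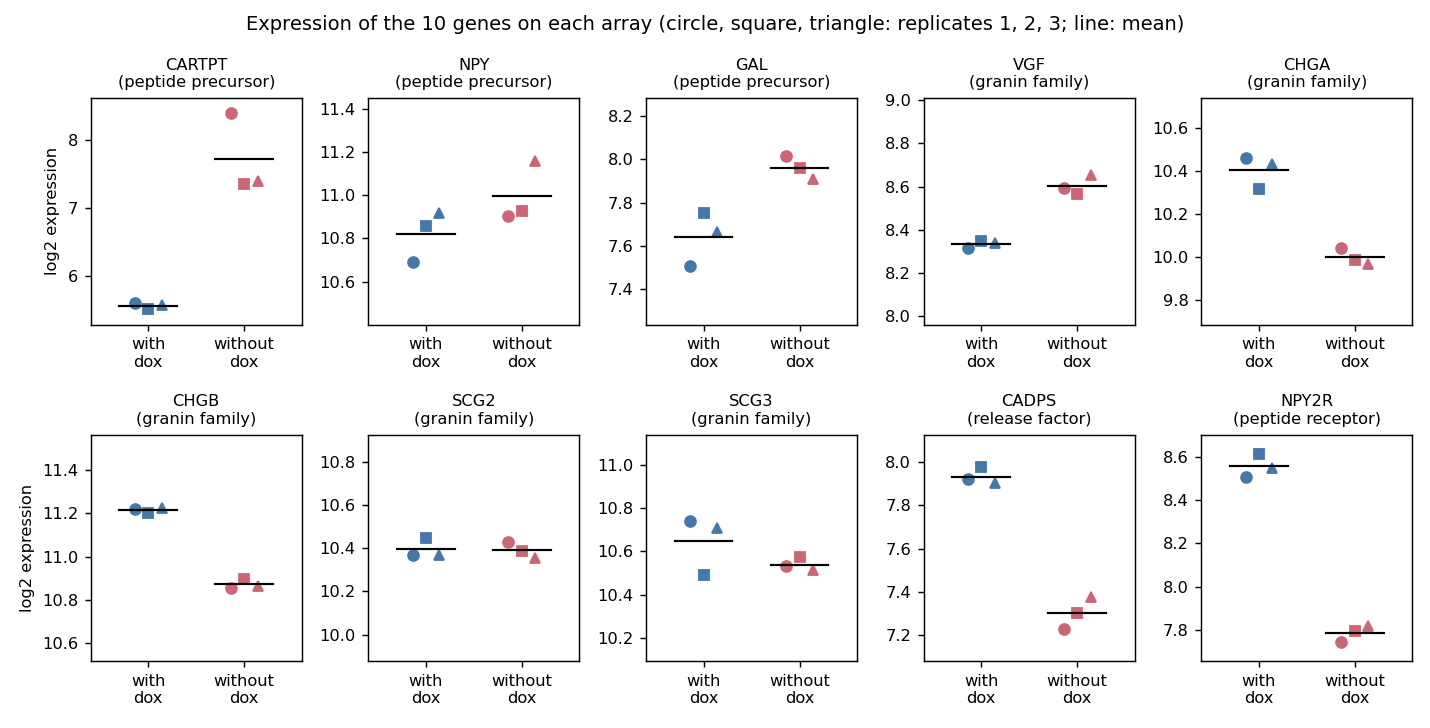
Log2 expression (vertical axis, own range in each panel) of the 10 genes on the 3 arrays with and the 3 without doxycycline; symbols mark replicates and lines the group means. CARTPT runs from 5.51 to 5.61 with and 7.36 to 8.40 without doxycycline, and only NPY, SCG2 and SCG3 have overlapping groups.

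NPY encodes neuropeptide Y, which sympathetic neurons release together with noradrenaline. Its log2 values were 10.69, 10.86 and 10.92 with doxycycline and 10.90, 10.93 and 11.16 without it. The groups overlapped, since the lowest untreated array lay under the highest treated one, and the difference was 0.18 (SE 0.10, 95% confidence interval -0.06 to 0.41). A change of the size seen for CARTPT lies outside that interval.

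GAL, the precursor of galanin, was at 7.50, 7.75 and 7.66 with and 8.01, 7.96 and 7.91 without doxycycline. All 3 untreated arrays lay above all treated ones, with 0.16 between the nearest values. The log2 difference was 0.32 (SE 0.084, 1.25-fold, limma adjusted p = 0.211), and 8.42% of all probe sets had a difference at least as large.

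VGF, a nerve growth factor-inducible precursor that is cut into several secreted peptides, was at 8.32, 8.35 and 8.34 with doxycycline and 8.59, 8.57 and 8.65 without it. These groups did not overlap either, and replicates were tight (SD 0.016 and 0.045). The difference was 0.27 (SE 0.061, 1.21-fold, limma adjusted p = 0.163). The VGF window holds the response element too, and the element's part in this difference was not tested.

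The chromogranins were lower without doxycycline. CHGA, which drives granule formation and is the source of catestatin and vasostatin, had log2 values of 10.46, 10.32 and 10.43 with and 10.04, 9.99 and 9.97 without doxycycline. CHGB, its close relative, was at 11.22, 11.20 and 11.23 with and 10.85, 10.90 and 10.86 without. In both genes every untreated array lay below every treated one, by at least 0.27 for CHGA and 0.30 for CHGB. The differences were -0.40 (SE 0.068, 1.32-fold lower, limma adjusted p = 0.0856) and -0.34 (SE 0.058, 1.27-fold lower, limma adjusted p = 0.0853). The CHGA window also holds the response element, whose part in the CHGA difference was not tested.

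The secretogranins showed no separation of the groups. SCG2, the precursor of secretoneurin, was at 10.37, 10.45 and 10.37 with and 10.43, 10.38 and 10.36 without doxycycline. Its difference was -0.005 with a 95% confidence interval of -0.15 to 0.14, an interval that does not contain the values of CHGA or CHGB. SCG3, which links chromogranin A to the granule membrane, was at 10.74, 10.49 and 10.71 with and 10.53, 10.57 and 10.51 without. Treated replicate 2 lay below the untreated arrays and the other two treated arrays above them, so the groups overlapped. The SCG3 difference was -0.11 (SE 0.085, 95% confidence interval -0.31 to 0.096).

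CADPS, which primes dense-core vesicles for calcium-triggered fusion, was at 7.92, 7.98 and 7.90 with doxycycline and 7.23, 7.30 and 7.37 without it. The groups were 0.53 apart at their nearest values. The log2 difference was -0.63 (SE 0.068, 95% confidence interval -0.79 to -0.47), or 1.55-fold lower, and 1.42% of all probe sets had a difference at least as large. Its paralog CADPS2 was at 3.02 with and 3.06 without doxycycline, below the median of all values, so a change there could be missed.

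NPY2R, an inhibitory receptor for neuropeptide Y that sits on nerve endings, was at 8.51, 8.61 and 8.55 with and 7.75, 7.79 and 7.82 without doxycycline. All untreated arrays lay at least 0.69 below the treated ones, and both groups were tight (SD 0.052 and 0.037). The difference was -0.77 (SE 0.064, 95% confidence interval -0.92 to -0.62), or 1.71-fold lower, and 0.720% of all probe sets had a difference at least as large. Precursor and receptor of the neuropeptide Y pair stood at 0.18 and -0.77. NPY1R and NPY5R, further receptors of this peptide, had differences of -0.13 and 0.07 at levels below the median of all values.

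**Figure D2:**
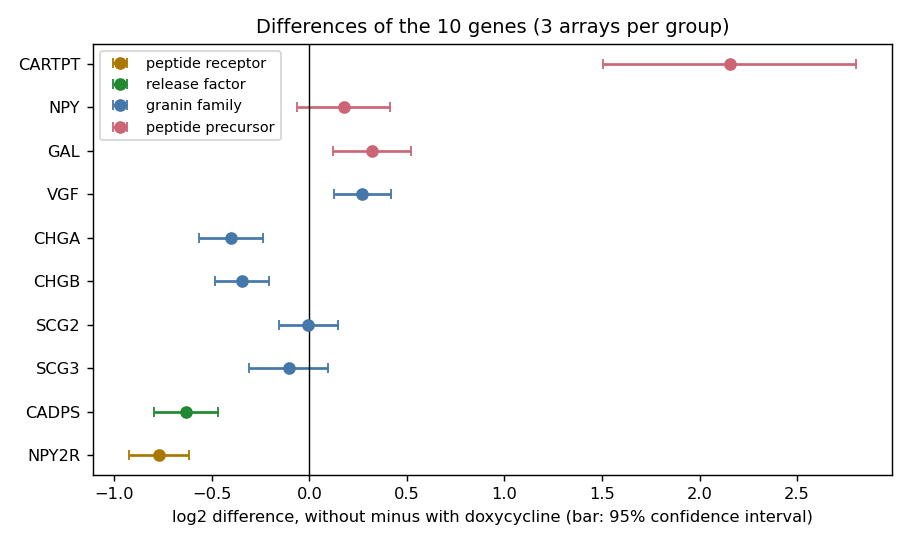
Log2 difference, without minus with doxycycline (horizontal axis), of each of the 10 genes by role, with points for the estimate and bars for the 95% confidence interval of the limma fit to 3 arrays per group. CARTPT lies at 2.15, CADPS and NPY2R lie at -0.63 and -0.77, and the intervals of NPY, SCG2 and SCG3 include 0.

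In the limma fit over all probe sets, 3 of the 10 genes passed an adjusted p of 0.05: CARTPT higher, NPY2R and CADPS lower. Their limma adjusted p values were 0.0449, 0.0146 and 0.0301. CHGA, CHGB, VGF and GAL did not pass, although their groups did not overlap. Of all probe sets 0.341% passed, 0.248% as higher and 0.0933% as lower, and of the named genes 0.564% passed. Groups did not overlap for 3 genes in the higher and 4 in the lower direction. The shares were 10.2% and 9.09% of all probe sets, and 12.1% and 12.5% of named genes. Nothing is read from these counts, since the genes were chosen with this contrast known. The calls rested on all 6 arrays: without untreated replicate 1 CARTPT was the 1 gene called, and without any one of the other 5 arrays 0 of the 10 were called. The differences themselves stayed between 1.81 and 2.34 for CARTPT, -0.80 and -0.74 for NPY2R, and -0.67 and -0.59 for CADPS.

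**Figure D3:**
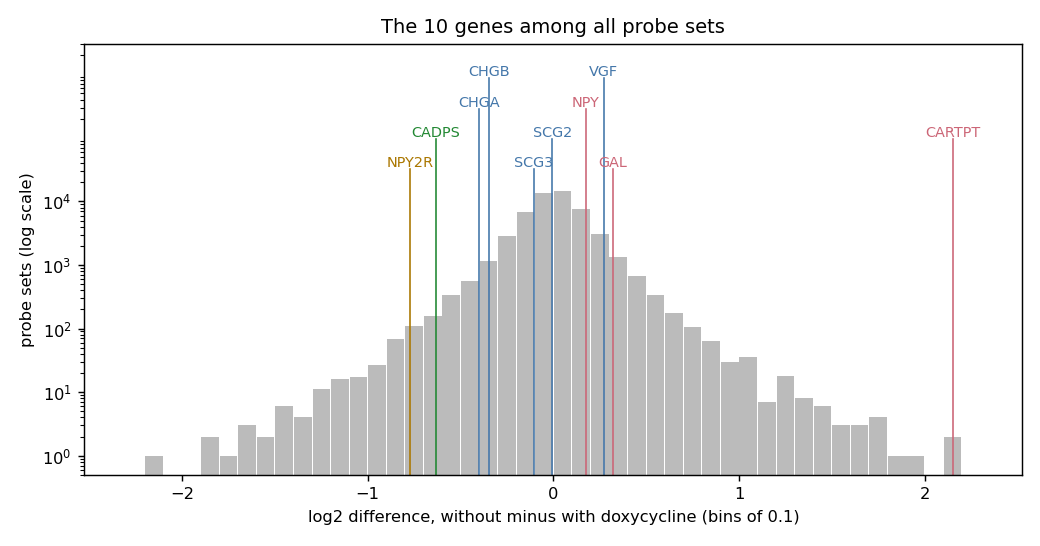
Histogram of the log2 difference, without minus with doxycycline, of all 53617 probe sets in bins of 0.1 (vertical axis logarithmic), with coloured lines at the 10 genes by role. CARTPT at 2.15 stands at the right end, while SCG2 at -0.005 and SCG3 at -0.11 lie in the bulk.

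The 6 lists of other genes, with 155 measured, showed 0 genes past limma's adjusted p of 0.05, beside 0.564% of the named genes. These lists cover the regulated secretory pathway and, with 19 of the genes, cyclic AMP and CREB signalling together with some other transcription regulators. Before adjustment, 11 higher and 15 lower genes had p below 0.05, which is 16.8% of the 155 beside 14.4% of all named genes. Groups did not overlap for 19 genes in the higher direction (12.3%, beside 12.1% of named genes) and 26 in the lower (16.8%, beside 12.5%). The median difference of the 155 was 0.001, beside -0.002 over all named genes. Moderation with trend and robust settings also called 0 of them.

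Other peptide precursors held 0 genes that rose or fell among 42 measured (unadjusted p below 0.05 for 1 higher and 0 lower), with a median difference of 0.01. VIP, the vasoactive intestinal peptide precursor and a product of sympathetic neurons, was at 10.36 in both groups. CRH, the corticotropin-releasing hormone precursor, and ADM, the adrenomedullin precursor, were at 0.22 and 0.23, and NPVF and PDYN at -0.22 and -0.13. Only 14 of the 42 lay above the median of all values, so most of these precursors were dim here. The largest positive difference in the list was 0.23, against 2.15 for CARTPT.

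Enzymes that cut and amidate precursors, 16 measured, gave 0 calls in limma (1 higher and 2 lower unadjusted). SCG5, the chaperone of the convertase PCSK2, was at 7.35 ± 0.030 with and 7.12 ± 0.065 without doxycycline, a difference of -0.23. CPD, a carboxypeptidase, was at -0.20, and the convertase PCSK7 and the protease CTSL were at 0.28 and 0.20. PAM, the amidating enzyme, had a difference of 0.14 (limma adjusted p = 0.612). The list's median was 0.006.

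Granule biogenesis and membrane genes, 13 measured, gave 0 calls (0 higher and 3 lower unadjusted), and 9 of the 13 differences were negative, with a median of -0.05. VAMP4, a SNARE protein that immature granules lose as they mature, was at -0.28 (SE 0.065), and ARFIP1, an arfaptin of the Golgi, at -0.34. The largest difference in the list, that of HID1, a Golgi factor of dense-core vesicle formation, was -0.57 (SE 0.18, 1.48-fold lower, limma adjusted p = 0.289). HID1 had means of 5.09 ± 0.24 with and 4.52 ± 0.32 without doxycycline (SD, n = 3 each). PEBP1 and EIPR1 were at 0.10 and 0.07. CYB561, the electron carrier of the chromaffin granule membrane, had a difference of -0.01.

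Docking, priming and release genes, 28 measured, gave 0 calls (2 higher and 4 lower unadjusted), with a median of -0.07. SYT1, the calcium sensor of fast release, was at -0.17, and the priming factor UNC13B at -0.24, while STXBP5 and EXPH5 were both at 0.23. Differences in this list ran from -0.25 to 0.23, all nearer to 0 than that of CADPS.

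Peptide receptors, 37 measured, gave 0 calls (2 higher and 5 lower unadjusted), and only 10 lay above the median of all values. ADCYAP1R1, the receptor of the peptide PACAP, was at 7.41 ± 0.15 with and 6.95 ± 0.070 without doxycycline, a difference of -0.46 (SE 0.095, limma adjusted p = 0.135). CCKAR was at -0.41, and GALR3, a galanin receptor, and NPY6R at 0.27 and 0.31, all at dim probe sets.

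The list of cyclic AMP and CREB genes, 28 named and 19 measured, gave 0 calls (5 higher and 1 lower unadjusted), with a median of 0.02. It also held the transcription regulators REST, RCOR1, INSM1, MYT1 and ST18, so its counts are not a measure of CREB activity. NR4A1, NR4A2, NR4A3, PDE4B, PDE4D and ATF1 were among the listed genes without a named probe set. ATF3 and FOSB, immediate early transcription factors, were at 0.41 and 0.39, and SIK1, a kinase induced by cyclic AMP, and PER2 at -0.32 and -0.25. The ATF3 probe set was dim, with a mean over 6 arrays of 3.77, below the median of all values. The dimmer FOSB probe set was at -0.05, of the opposite sign. None of these 4 genes passed the test, and their limma adjusted p values were 0.123, 0.215, 0.143 and 0.457. Of the enzymes of noradrenaline synthesis, the vesicle enzyme DBH was at 0.28 and the cytosolic enzymes TH and DDC at 0.34 and -0.05 (limma adjusted p = 0.244, 0.190 and 0.837).

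**Figure D4:**
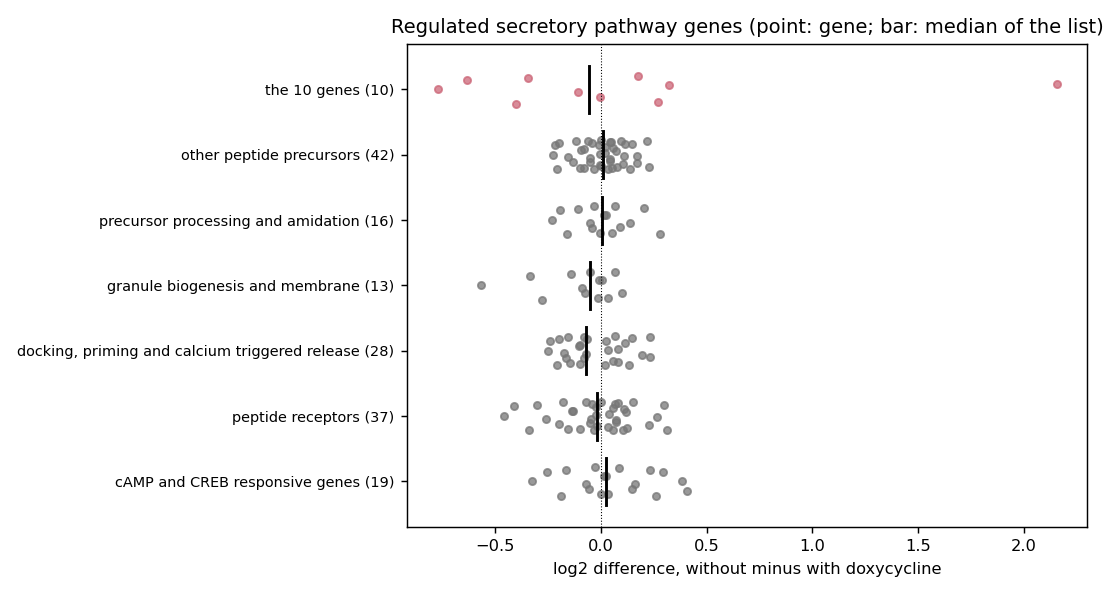
Log2 difference, without minus with doxycycline (horizontal axis), of each measured gene (points) in the 10 genes and in the 6 other lists. The lists hold secretory pathway genes and a mixed list of cyclic AMP, CREB and other transcription regulator genes. Numbers of genes are in brackets, and black bars mark list medians. The lists' medians lie between -0.07 and 0.02. Genes outside the 10 run from -0.57 (HID1) to 0.41 (ATF3, a dim probe set), against 2.15 for CARTPT and -0.77 for NPY2R.

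The genes most like CARTPT over the 6 arrays were ranked by Pearson's r on log2 values among 9099 named genes at or above the median of all values. The points share 2 groups, so r mostly follows the group difference: 108 genes had r of at least 0.95 and 119 had r of -0.95 or lower. The highest were INS-IGF2 (0.997), CENPN (0.997), MED16 (0.997), AQP1 (0.992) and PEG10 (0.989), and the lowest OSBPL8 (-0.996), NAT10 (-0.995) and TMEM63C (-0.992). INS-IGF2 is a readthrough of neighbouring genes, and its signal cannot be assigned to one of them.

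Among these, AQP1, a water channel, came nearest to CARTPT in size. It was at 6.02, 6.08 and 6.18 with and 7.83, 7.14 and 7.02 without doxycycline, with untreated replicate 1 the highest array. Ranking by r over these same arrays selects for this order. Replicate 1 was the most extreme untreated array in every gene named from the ranking. The AQP1 difference was 1.23 (SE 0.21), and it did not pass the threshold (limma adjusted p = 0.0824). The other 4 of the highest had differences of 0.10 to 0.43. Of the 10 genes themselves, VGF and GAL had r of 0.921 and 0.889 with CARTPT, and CADPS, NPY2R, CHGB and CHGA had -0.978, -0.966, -0.965 and -0.889. NPY, SCG2 and SCG3 lay between, at 0.504, 0.0786 and -0.514.

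**Figure D5:**
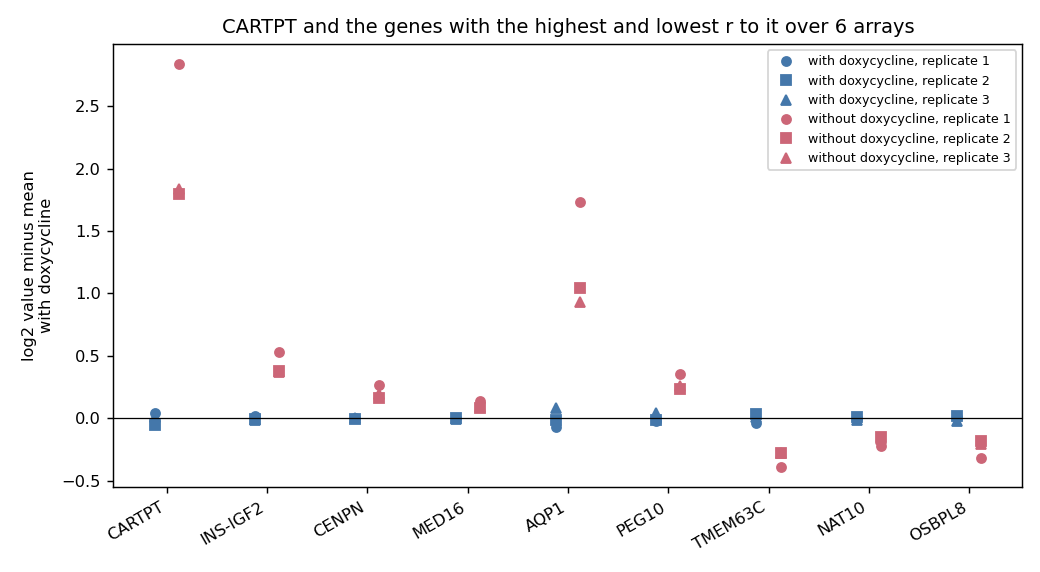
Log2 value of each array minus the gene's mean with doxycycline (vertical axis), for CARTPT and the 5 genes with the highest and 3 with the lowest r to it over 6 arrays; colours mark the groups and symbols the replicates. Untreated replicate 1 lies farthest from 0 in every gene shown, which the choice by r to CARTPT selects for. It is at 8.40 in CARTPT and 7.83 in AQP1 before subtraction.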

How the data were processed

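Values were the authors' deposited log2 expression values, 1 per probe set and array. They were made with Partek, per the submitters' processing notes, and the background correction, normalization, summarization and build behind them are not stated there. Their range, 2.12 to 14.3, is too high for a larger log base of a scanner's intensity. Array medians were 3.94 to 3.96. Scanner intensities were not used here, so the number of arrays limits the precision.

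GEO's platform annotation named 16098 of 53617 probe sets with 1 symbol, 0 with several and 37519 with none. A gene with several probe sets was represented by the brightest. All probe sets were fitted with limma 3.58.1 in R 4.3.3 (lmFit, eBayes, no covariate, no filter), without minus with doxycycline, with Benjamini-Hochberg adjustment over all probe sets and a threshold of 0.05. The fit was run on simulated data with normal noise of the same SD in both groups. That setting cannot speak to unequal spread such as that of CARTPT.

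The 10 genes and the lists were chosen with earlier results of these data known. Text names all 10, every called list gene or otherwise the 2 genes with the smallest p in each direction, the genes most and least correlated with CARTPT, and KDM4C. Other genes named in a list (VIP, PAM, CYB561, CADPS2, NPY1R, NPY5R, HID1, TH, DBH, DDC and the markers) stand for their role or size and were chosen after their values were seen. Alternatives were quantile normalization, median centring, trend and robust moderation, no dim probe sets, gene means, a replicate block and leaving out each array.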

Additional observations from a re-analysis of the deposited data

How the results depend on the processing

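Differences of the 10 genes kept their sign under all alternatives except SCG2, which was at 0.000203 after quantile normalization and between -0.025 and 0.020 with 1 array left out. Counts of calls moved more. Trend and robust moderation called 385 probe sets, among them 5 of the 10 genes (CHGA and CHGB, lower, joined CARTPT, NPY2R and CADPS), and the test without dim probe sets called 313, for which fewer probe sets were tested. Leaving out 1 array gave 0 to 15 probe sets and 0 to 1 of the 10 genes. CARTPT was then at 1.81 to 2.34, NPY2R at -0.80 to -0.74 and CADPS at -0.67 to -0.59. Their limma adjusted p was 0.0305 to 0.170, 0.0691 to 0.0995 and 0.0982 to 0.139. The 0 calls in the pathway lists stayed at 0 under every alternative run.

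Deviations from the group means of same-numbered arrays correlated at -0.01, -0.01 and 0.04 over all probe sets. Those of different-numbered arrays correlated at -0.03 to 0.04, and 2 of 6 arrays correlated best with their own number. No pairing by replicate number was seen in these values. With so few arrays per group they cannot show whether same-numbered samples were handled together, so the block fit is given beside the main fit. With the replicate block 0 probe sets and 0 of the 10 genes passed (6251 probe sets at an unadjusted p below 0.05). CARTPT then stood at 2.15, NPY2R at -0.77 and CADPS at -0.63, with limma adjusted p of 0.140, 0.136 and 0.174. Each of the 10 genes had 1 probe set, so averaging probe sets left them as they were.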
